A study of Saccharomyces cerevisiae with 12 samples.

Results

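The genes of glycosylation and glycan trimming in the endoplasmic reticulum (ER) were examined in mild heat-shocked wild-type *Saccharomyces cerevisiae*. The list of 36 genes was fixed by name and covers the assembly of the lipid-linked oligosaccharide, the oligosaccharyltransferase, the protein O-mannosyltransferases, the supply of GDP-mannose, and the glucosidases, mannosidase and calnexin homologue that act on the finished glycan. Of these 36 genes, 35 had a probe with values among the 6019 genes and unnamed open reading frames tested, and *STT3*, the catalytic subunit of the oligosaccharyltransferase, was not analysed here. Each of the 35 genes was measured by 1 probe. JN54 cells, a *MATa* strain with *his3*, *leu2*, *ura3*, *trp1* and *lys2* mutations, were in logarithmic growth at 30°C before treatment. Heat-shocked cells were then kept in pre-warmed YPD at 43°C for 60 or 30 min. Control cells of the same strain were at 30°C, and the methods do not say for how long. RNA of heat-shocked cells was labelled with Cy5 and RNA of control cells with Cy3, and both were hybridized to the same 2-colour cDNA array, which gave 6 arrays, from 3 experiments per time.

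N-glycosylation starts on dolichol, a long lipid of the ER membrane. Sugars are added to it one by one, first on the cytosolic face from nucleotide sugars and then, after the chain is turned over, on the lumenal face from dolichol-linked mannose and glucose. The oligosaccharyltransferase moves the finished chain onto asparagine residues of proteins entering the ER, where glucosidases and a mannosidase trim it while the protein folds. O-mannosylation also begins in the ER, with dolichol-linked mannose as the donor, and both kinds of glycan are abundant on the mannoproteins of the yeast cell wall.

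Every value below is a log2 ratio of heat-shocked over control cells on 1 array, so a value of -1 is a 2-fold lower signal, and none is a level from which genes could be ranked. *HSP12*, *SSA4* and *HSP26*, known heat-shock genes, lay above 0 on all 6 arrays (1.74 to 5.58), the direction that the dyes give. Array medians were -0.01 to 0.03, while the spread differed, with a median absolute deviation of 0.41 to 0.70 at 60 min and 0.38 to 0.56 at 30 min. Experiment 3 had the narrowest spread at each time. On its arrays 1997 features at 60 min and 2480 at 30 min shared their exact value with another feature, against 162 to 770 in experiments 1 and 2. Its single values are thus more coarsely stepped, and the cause was not tested. Every array carried heat-shocked RNA in Cy5, with no swapped array described, and heat shock and dye cannot be told apart. In bulk RNA, fewer cells with a transcript and less transcript per cell cannot be told apart either. The methods call the experiments independent without saying what was separate in them (cultures or only hybridizations), and the p-values measure the spread between these arrays, which may in part be technical.

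Most of the glycosylation genes had lower mRNA in heat-shocked than in control cells, and *OST1* and *PMT4* were over 2-fold lower on all 6 arrays. By limma at an adjusted p under 0.05, 14 of the 35 genes (40%) fell and 2 rose after 60 min, where 18.2% of all features fell and 15.6% rose. After 30 min, 16 of 35 (45.7%) fell and 0 rose, where 15.9% of all features fell and 10.7% rose. At an unadjusted p under 0.05, 22 fell and 2 rose after 60 min, and 20 fell and 0 rose after 30 min. Of all 6019 features, 1388 fell and 1312 rose at that level after 60 min, and 1350 fell and 1086 rose after 30 min. The median log2 ratio over the 35 genes was -0.57 at 60 min and -0.63 at 30 min, against medians of 0.01 and -0.01 over all features. All 3 experiments lay below 0 for 21 genes at 60 min (28.2% of all features) and for 27 genes at 30 min (35.1% of all features). All 3 lay above 0 for 3 genes at 60 min (27.7% of all features) and for 1 gene at 30 min (34% of all features).
The genes that fell at both times were *OST1*, *OST3*, *OST6*, *WBP1*, *ALG3*, *ALG8*, *ALG9*, *PMT4* and *SEC53*, 9 of 35 (25.7%) where 11.5% of all features fell at both. By the study's own rule, over 2-fold in at least 2 of 3 experiments, 6 genes were down at 60 min (10.5% of all features) and 7 at 30 min (10.2%). None was over 2-fold up at either time, where 6.89% and 4.42% of all features were. The 6 genes down at 60 min were *OST1*, *OST2*, *OST5*, *OST6*, *ALG3* and *PMT4*, and the 7 down at 30 min were *OST1*, *WBP1*, *ALG3*, *PMT1*, *PMT4*, *PMI40* and *SEC53*. The number that fell after 60 min was 8 without experiment 2 of 60 min, 8 and 9 without experiment 2 or 3 of 30 min, 9 with experiment 3 dropped from both times, and 7 in a fit of 60 min by itself. In the same order, 811, 902, 962, 745 and 755 of all features fell, against 1096 in the main fit. With print blocks centred, 17 of the 35 genes fell and 0 rose after 60 min, where 1094 and 898 of all features did. The number that fell after 30 min was 6, 5 and 10 when experiment 1, 2 or 3 of 30 min was left out, and 9 when experiment 3 was dropped from both times. In the same order, 441, 417, 658 and 552 of all features fell, against 960 in the main fit. With scaled arrays 20 genes and 1261 features fell after 30 min, and in a fit of 30 min by itself 22 genes and 1443 features.

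**Figure D1:**
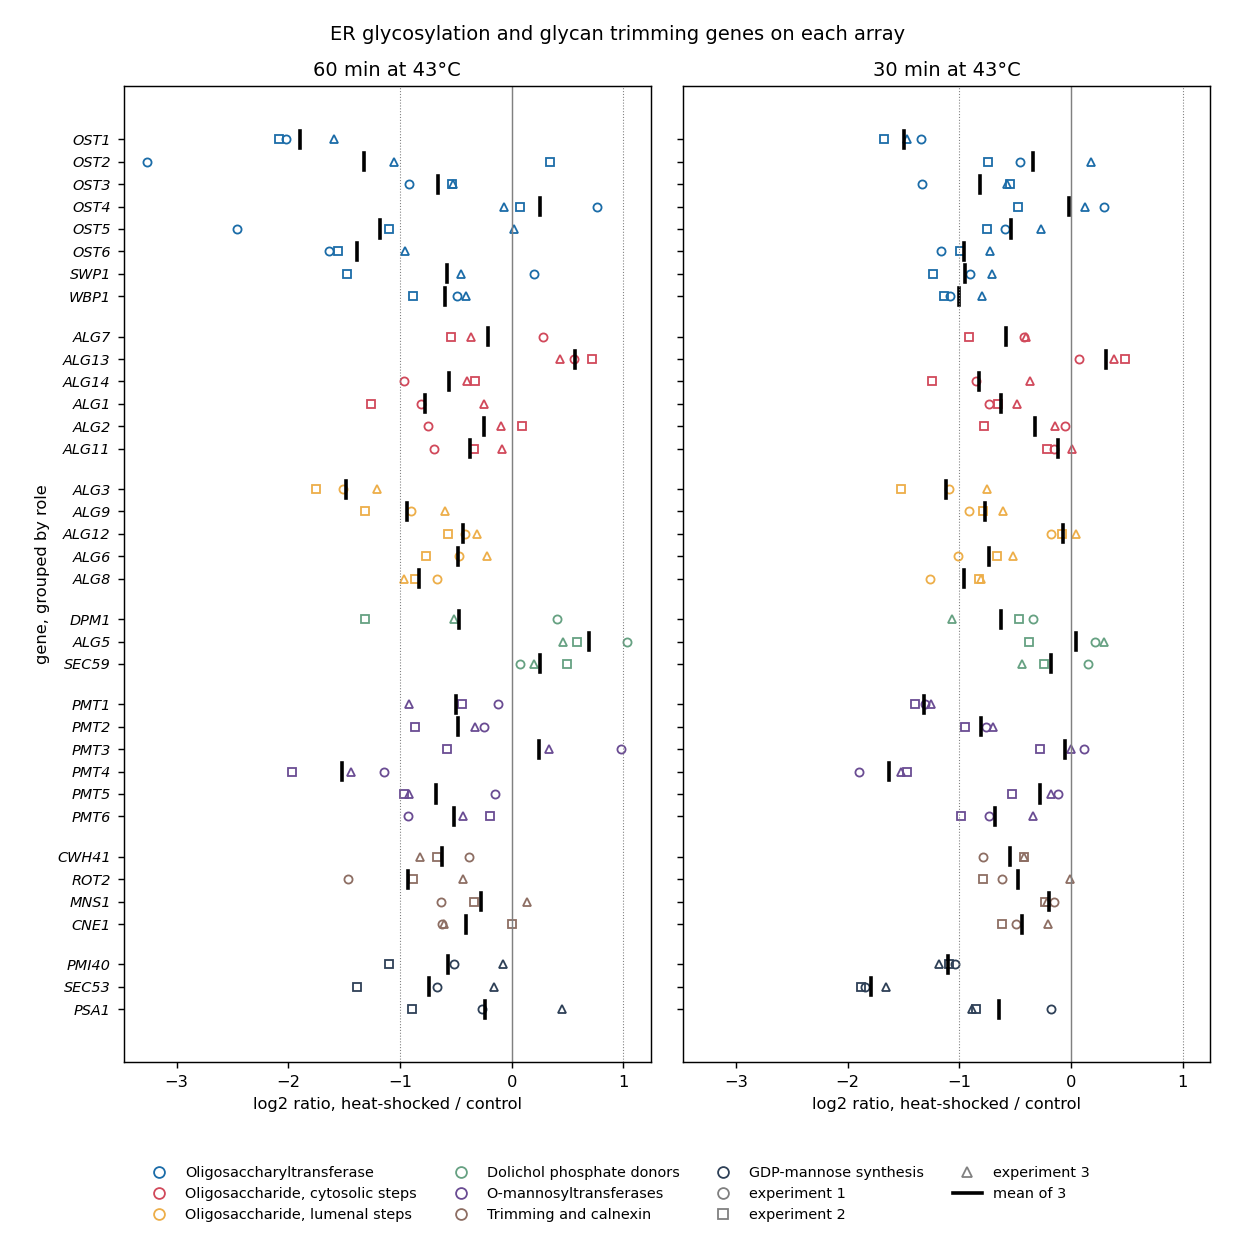
Log2 ratio of heat-shocked over control cells for the 35 genes on each array, at 60 min (left) and 30 min (right), grouped and coloured by role. Open symbols are the 3 experiments, black bars their mean and dotted lines a 2-fold change. Most symbols lie left of 0, *OST1* and *PMT4* lie below -1 on all 6 arrays, and *OST2* spreads from -3.26 to 0.35 at 60 min.

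Among the 8 measured subunits of the oligosaccharyltransferase, 5 fell after 60 min and 5 after 30 min, and none rose. The median of the subunits was -0.92 at 60 min and -0.88 at 30 min. *OST1* (YJL002C), a subunit homologous to mammalian ribophorin I, had log2 ratios of -2.02, -2.08 and -1.60 at 60 min and of -1.34, -1.68 and -1.47 at 30 min in experiments 1, 2 and 3. All 6 arrays were thus over 2-fold down. *OST1* fell by 1.90 ± 0.27 on the log2 scale after 60 min (SD, n = 3, adjusted p = 0.000118 from limma) and fell by 1.50 ± 0.17 after 30 min (SD, n = 3, adjusted p = 0.000584), or to 0.268 and 0.355 times the control. On every array it was among the lowest features, between the percentiles 3.06 and 4.09 at 60 min and between 3.52 and 7.49 at 30 min.
*OST3* and *OST6* encode alternative subunits with a thioredoxin-like fold, of which a complex holds one or the other. *OST6* (YML019W) had -1.64, -1.56 and -0.96 at 60 min (mean -1.38 ± 0.37, SD, n = 3, adjusted p = 0.000933) and -1.16, -0.99 and -0.72 at 30 min (mean -0.96 ± 0.22, SD, n = 3, adjusted p = 0.00930). *OST3* (YOR085W) had -0.92, -0.54 and -0.53 at 60 min (mean -0.66 ± 0.23, SD, n = 3, adjusted p = 0.0436) and -1.33, -0.54 and -0.58 at 30 min (mean -0.82 ± 0.45, SD, n = 3, adjusted p = 0.0228). Both alternative subunits were thus lower on all 6 arrays. *WBP1* (YEL002C) and *SWP1* (YMR149W) are essential subunits that form a subcomplex with Ost2p. *WBP1* had -0.49, -0.89 and -0.41 at 60 min (adjusted p = 0.0445) and -1.08, -1.14 and -0.79 at 30 min (adjusted p = 0.00550). *SWP1* had 0.20, -1.47 and -0.46 at 60 min (adjusted p = 0.146) and -0.91, -1.24 and -0.71 at 30 min (adjusted p = 0.0339). *SWP1* was thus low on all 3 arrays of 30 min and on both sides of 0 at 60 min.
The small subunits are *OST2*, *OST4* and *OST5*. *OST5* (YGL226C-A) had -2.46, -1.10 and 0.02 at 60 min (mean -1.18 ± 1.24, SD, n = 3, adjusted p = 0.0310) and -0.59, -0.75 and -0.27 at 30 min (adjusted p = 0.292). *OST2* (YOR103C), the homologue of mammalian DAD1, had -3.26, 0.35 and -1.06 at 60 min (adjusted p = 0.0649), the largest SD of the 35 genes at that time (1.82), and -0.46, -0.74 and 0.18 at 30 min (adjusted p = 0.635). For both genes experiment 1 gave the lowest value of 60 min. *OST4* (YDL232W), a very small membrane protein, had 0.76, 0.07 and -0.07 at 60 min (adjusted p = 0.442) and 0.30, -0.47 and 0.12 at 30 min (adjusted p = 0.964), with no common sign at either time. The 30 min calls of *OST6* and *WBP1* did not hold when experiment 1 or 2 of 30 min was left out (adjusted p of 0.0825 to 0.0945 and of 0.0568 to 0.0699), nor did that of *OST5* at 60 min when experiment 1 or 2 of 60 min was (0.0851 to 0.163). The calls of *OST3* and *SWP1* at 30 min and of *OST3* and *WBP1* at 60 min were lost without any 1 of the experiments 1, 2 and 3 of their own time (adjusted p of 0.0565 to 0.229). At 60 min *OST2* passed as lower without experiment 2 of 60 min (0.0101), with scaled arrays (0.0341) or with the replicate block (0.0166), and *SWP1* without experiment 1 of 60 min (0.0240) or with print blocks centred (0.0242).

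The 5 mannosyl- and glucosyltransferases of the lumenal face had means below 0 at both times, and 3 of them fell after 60 min and 4 after 30 min. Their median was -0.83 at 60 min and -0.77 at 30 min. *ALG3* (YBL082C), which adds the first mannose on the lumenal face, had -1.51, -1.75 and -1.21 at 60 min and -1.09, -1.52 and -0.75 at 30 min. It fell by 1.49 ± 0.27 after 60 min (SD, n = 3, adjusted p = 0.000706 from limma) and fell by 1.12 ± 0.38 after 30 min (SD, n = 3, adjusted p = 0.00478). *ALG9* (YNL219C), the next mannosyltransferase, had -0.91, -1.32 and -0.60 at 60 min (adjusted p = 0.00742) and -0.92, -0.79 and -0.61 at 30 min (adjusted p = 0.0225). *ALG12* (YNR030W), which adds a mannose between the steps of Alg9p, did not pass the test at either time. It had -0.42, -0.58 and -0.31 at 60 min (adjusted p = 0.107) and -0.18, -0.08 and 0.05 at 30 min (adjusted p = 0.805).
*ALG6* and *ALG8* add the first glucose residues to the chain. *ALG8* (YOR067C) had -0.67, -0.86 and -0.96 at 60 min (adjusted p = 0.0105) and -1.26, -0.82 and -0.80 at 30 min (adjusted p = 0.00654). *ALG6* (YOR002W) had -0.47, -0.76 and -0.22 at 60 min (adjusted p = 0.0981) and -1.01, -0.66 and -0.52 at 30 min (adjusted p = 0.0265). Both genes were thus below 0 on every array. The 30 min calls of *ALG3* and *ALG8* were lost without experiment 2 and experiment 1 of 30 min (adjusted p = 0.0765 and 0.0862), and that of *ALG8* at 60 min without experiment 3 of both times (0.0832). Those of *ALG6* and *ALG9* at 30 min were lost without any 1 of the experiments 1, 2 and 3 of 30 min (0.0659 to 0.212), and that of *ALG9* at 60 min with print blocks centred (0.0509).

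The cytosolic steps had a median of -0.31 at 60 min and -0.45 at 30 min over 6 genes. After 60 min 1 fell and 1 rose, and after 30 min 1 fell. *ALG13* and *ALG14* encode the subunits of 1 enzyme, the transferase of the second N-acetylglucosamine, with Alg14p holding the catalytic Alg13p at the membrane. *ALG13* (YGL047W) had 0.56, 0.72 and 0.43 at 60 min (mean 0.57 ± 0.14, SD, n = 3, adjusted p = 0.0480 from limma) and 0.07, 0.49 and 0.39 at 30 min (adjusted p = 0.258). *ALG14* (YBR070C) had -0.97, -0.33 and -0.40 at 60 min (adjusted p = 0.0863) and -0.85, -1.24 and -0.37 at 30 min (mean -0.82 ± 0.44, SD, n = 3, adjusted p = 0.0263). The values of *ALG13* were above 0 and those of *ALG14* below 0 on all 6 arrays. The call of *ALG13* was lost without any 1 of the 6 arrays (adjusted p of 0.0740 to 0.139), and that of *ALG14* when experiment 1 or 2 of 30 min, or experiment 3 of both times, was left out (0.0561 to 0.238).
*ALG1* (YBR110W), which adds the first mannose, had -0.81, -1.26 and -0.25 at 60 min (mean -0.77 ± 0.51, SD, n = 3, adjusted p = 0.0253) and -0.74, -0.66 and -0.49 at 30 min (adjusted p = 0.0659). *ALG7* (YBR243C), the target of tunicamycin that starts the chain, had 0.28, -0.54 and -0.37 at 60 min (adjusted p = 0.509) and -0.42, -0.92 and -0.41 at 30 min (adjusted p = 0.0827). *ALG2* (YGL065C), a mannosyltransferase, had -0.75, 0.09 and -0.10 at 60 min and -0.05, -0.78 and -0.15 at 30 min. Of these 3 genes, *ALG1* lay below 0 on all 6 arrays, and its call did not hold with experiment 1 or 2 of 60 min, or experiment 2 of 30 min, left out (0.0503 to 0.133). At 30 min *ALG1* passed without experiment 1 or 2 of 60 min (0.0444 and 0.0351) and *ALG7* without experiment 1 of 60 min (0.0350), and both passed with scaled arrays or with 30 min fitted alone. *ALG11*, which completes the cytosolic mannose branch, had means of -0.37 at 60 min and -0.12 at 30 min and did not pass the test.

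Of the 3 genes that supply dolichol-linked sugars, 0 fell at either time by limma, adjusted or unadjusted. Of all features, 18.2% fell after 60 min and 15.9% after 30 min (adjusted p under 0.05), so 0 of 3 does not set this group apart. *ALG5* (YPL227C), which makes dolichol phosphate glucose, had 1.03, 0.59 and 0.46 at 60 min and 0.21, -0.38 and 0.29 at 30 min. It rose by 0.69 ± 0.30 after 60 min (SD, n = 3, adjusted p = 0.0351 from limma) and had a mean of 0.04 ± 0.37 at 30 min (SD, n = 3, adjusted p = 0.903). The 3 values of 60 min were all above those of 30 min, and the call at 60 min was lost without any 1 of the 6 arrays (adjusted p of 0.0520 to 0.119). *DPM1* (YPR183W), which makes dolichol phosphate mannose for both N- and O-glycosylation, had 0.40, -1.31 and -0.52 at 60 min (adjusted p = 0.245) and -0.34, -0.47 and -1.07 at 30 min (adjusted p = 0.144). *SEC59* (YMR013C), the dolichol kinase, had 0.07, 0.49 and 0.20 at 60 min (adjusted p = 0.373) and 0.15, -0.24 and -0.44 at 30 min (adjusted p = 0.554). With experiment 1 of 60 min left out, *DPM1* passed as lower at 60 min (-0.91, adjusted p = 0.0284), as it did with print blocks centred (0.0495), and it passed at 30 min without experiment 1 of 60 min (0.0483) or in a fit of 30 min by itself (0.0228).

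The protein O-mannosyltransferases divided by gene. Pmt1p and Pmt2p form the main heterodimer, Pmt5p and Pmt3p the corresponding minor one, and Pmt4p acts as a homodimer on membrane proteins. *PMT4* (YJR143C) had -1.14, -1.96 and -1.44 at 60 min and -1.90, -1.47 and -1.52 at 30 min, over 2-fold down on all 6 arrays. It fell by 1.52 ± 0.41 after 60 min (SD, n = 3, adjusted p = 0.000651 from limma) and fell by 1.63 ± 0.24 after 30 min (SD, n = 3, adjusted p = 0.000587), to 0.350 and 0.323 times the control. *PMT1* (YDL095W) had -0.12, -0.45 and -0.92 at 60 min (adjusted p = 0.0975) and -1.31, -1.40 and -1.26 at 30 min, where it fell by 1.32 ± 0.07 (SD, n = 3, adjusted p = 0.00161). Its values at the 2 times did not overlap. *PMT2* (YAL023C) had -0.25, -0.87 and -0.33 at 60 min (adjusted p = 0.0991) and -0.76, -0.95 and -0.70 at 30 min (adjusted p = 0.0175).
In the minor pair, *PMT5* (YDL093W) had -0.15, -0.96 and -0.92 at 60 min (adjusted p = 0.0407) and -0.12, -0.53 and -0.18 at 30 min (adjusted p = 0.379). *PMT3* (YOR321W) had 0.98, -0.58 and 0.33 at 60 min (adjusted p = 0.525) and 0.11, -0.28 and 0.00 at 30 min (adjusted p = 0.900), and was thus on both sides of 0 at each time. *PMT6* (YGR199W), a relative of *PMT2*, had -0.93, -0.19 and -0.43 at 60 min (adjusted p = 0.0990) and -0.73, -0.98 and -0.34 at 30 min (adjusted p = 0.0460). The calls of *PMT2* and *PMT6* at 30 min were lost without any 1 of the experiments 1, 2 and 3 of 30 min, that of *PMT6* also without experiment 3 of 60 min, and that of *PMT5* at 60 min without experiment 2 or 3 of 60 min or any 1 of 30 min (adjusted p of 0.0580 to 0.298). With experiment 1 of 60 min left out (0.0428) or print blocks centred (0.0312), *PMT1* passed as lower at 60 min. How far the probes of these related genes cross-hybridize was not tested.

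The 3 enzymes that make GDP-mannose, the sugar donor on which all of these mannosylations depend, had a median of -0.57 at 60 min and -1.10 at 30 min, the lowest of the role groups at 30 min. After 60 min 1 of them fell, and after 30 min 2 fell. *SEC53* (YFL045C), the phosphomannomutase, had -0.67, -1.38 and -0.16 at 60 min and -1.85, -1.88 and -1.66 at 30 min. It fell by 0.74 ± 0.62 after 60 min (SD, n = 3, adjusted p = 0.0398 from limma) and fell by 1.79 ± 0.12 after 30 min (SD, n = 3, adjusted p = 0.000584), to 0.288 times the control. At 30 min it lay between the percentiles 2.41 and 3.75 of the arrays, and at 60 min between 10.4 and 38.6. *PMI40* (YER003C), the phosphomannose isomerase before it in the pathway, had -0.52, -1.10 and -0.08 at 60 min (adjusted p = 0.0780) and -1.04, -1.09 and -1.18 at 30 min, where it fell by 1.10 ± 0.07 (SD, n = 3, adjusted p = 0.00601). *PSA1* (YDL055C), which makes GDP-mannose itself, had -0.27, -0.90 and 0.45 at 60 min (adjusted p = 0.528) and -0.18, -0.85 and -0.89 at 30 min (adjusted p = 0.102). In all 3 genes experiment 3 was the least negative of 60 min. The 60 min call of *SEC53* did not hold with experiment 1 or 2 of 60 min or any 1 of 30 min left out, or in a fit of 60 min by itself (adjusted p of 0.0610 to 0.221), and the 30 min call of *PMI40* without experiment 2 of 30 min (0.0556). At 60 min *PMI40* passed as lower without experiment 3 of 60 min (0.0405).

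Of the 4 genes that trim or bind the transferred glycan, the glucosidases fell after 60 min and none changed by the test after 30 min. *CWH41* (YGL027C), glucosidase I, which removes the outermost glucose, had -0.39, -0.67 and -0.82 at 60 min (mean -0.63 ± 0.22, SD, n = 3, adjusted p = 0.0369 from limma) and -0.79, -0.42 and -0.42 at 30 min (adjusted p = 0.0711). *ROT2* (YBR229C), the catalytic subunit of glucosidase II, had -1.47, -0.89 and -0.44 at 60 min (mean -0.93 ± 0.52, SD, n = 3, adjusted p = 0.0162) and -0.62, -0.79 and -0.01 at 30 min (adjusted p = 0.180). Both glucosidase genes were below 0 on all 6 arrays. *CNE1* (YAL058W), the calnexin homologue, had -0.62, 0.00 and -0.61 at 60 min (adjusted p = 0.164) and -0.49, -0.62 and -0.20 at 30 min (adjusted p = 0.153). *MNS1*, the mannosidase that removes 1 mannose, had means of -0.28 at 60 min and -0.20 at 30 min. The call of *CWH41* was lost without experiment 2 or 3 of 60 min or any 1 of 30 min (adjusted p of 0.0578 to 0.143), and that of *ROT2* without experiment 1 of 60 min (0.0713). *CWH41* passed as lower at 30 min with scaled arrays, with 30 min fitted alone or without experiment 1 of 60 min (0.0255 to 0.0458), and *CNE1* at 60 and 30 min with print blocks centred (0.0361 and 0.0265).

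Whether the genes differed between the times was tested in the same model. None of the 35 genes had an adjusted p under 0.05 for 60 against 30 min, and 0 of all 6019 features did (0% called). At an unadjusted p under 0.05, 2 of the 35 genes were higher at 60 min (5.71%) and 0 lower, where 8.57% of all features passed in either direction. These 2 were *SEC53*, with a difference of 1.06 (95% interval 0.29 to 1.82, unadjusted p = 0.0113, adjusted p = 0.495), and *PMT1*, with 0.82 (95% interval 0.15 to 1.49, unadjusted p = 0.0206, adjusted p = 0.532). *ALG5* followed with 0.65 (95% interval -0.05 to 1.34, unadjusted p = 0.0645, adjusted p = 0.590). In these 3 genes the 3 values of 60 min were all above those of 30 min, as in 8.69% of all features, and in *ALG12* they were all below, as in 7.51%. Of the 35 differences, 22 were above 0 and 13 below, where 3137 of all 6019 features were above 0 and 2882 below. The SD between experiments was larger at 60 than at 30 min in 28 of the 35 genes, with medians of 0.38 and 0.24. The share of all features with a larger SD at 60 min was not computed. Over all features, the arrays of 60 min correlated at 0.60 to 0.74 with each other and those of 30 min at 0.77 to 0.85. Called lower at 1 time alone were 5 of the 35 genes at 60 min and 7 at 30 min, where 402 and 264 of all 6019 features were. With no difference called, these genes are not shown to differ between the times.

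**Figure D2:**
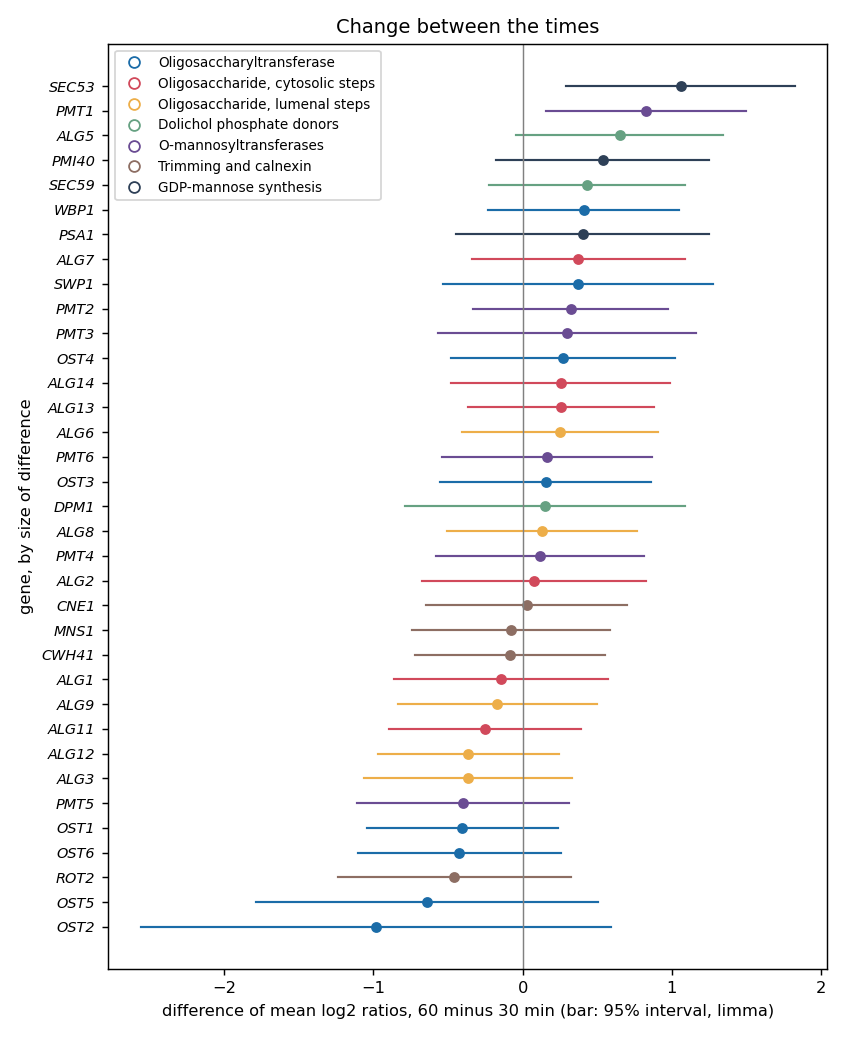
Difference of the mean log2 ratios, 60 minus 30 min, for the 35 genes ordered by size, coloured by role. Bars are 95% intervals from limma, and those of *SEC53* and *PMT1* alone do not reach 0, before adjustment for the number of features.

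**Figure D3:**
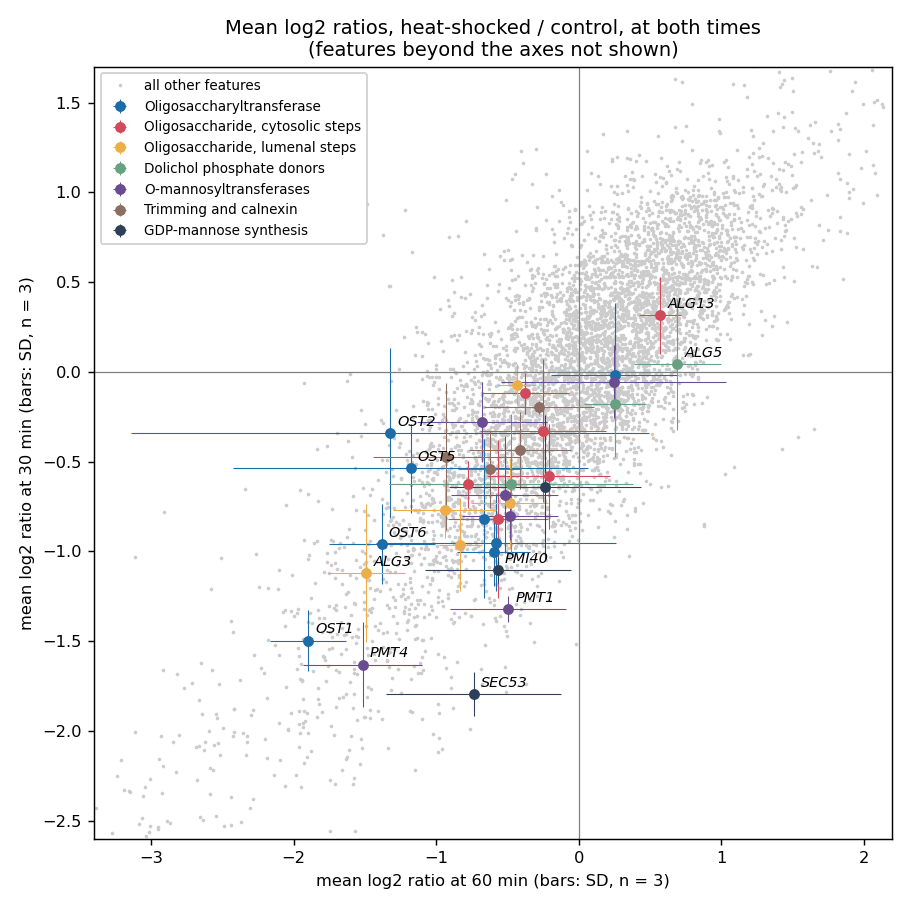
Mean log2 ratio at 60 min (x axis) and at 30 min (y axis) for the 35 genes, with SD bars (n = 3), over the other features in grey, leaving out those beyond the axes. *OST1* (-1.90 and -1.50) and *PMT4* (-1.52 and -1.63) are low at both times, and *ALG5* and *ALG13* lie to the right of 0. *SEC53* has -0.74 and -1.79, and its difference between the times was not called.

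The neighbouring steps of glycan synthesis were compared by lists of textbook genes, beside 18.2% of all features that fell and 15.6% that rose after 60 min, and 15.9% and 10.7% after 30 min. Of 22 Golgi mannosyltransferases measured, 7 fell and 2 rose after 60 min, and 10 fell and 1 rose after 30 min, with medians of -0.49 and -0.61. *MNN11* (YJL183W) and *MNN10* (YDR245W), of the complex that extends the mannan backbone, fell by 1.60 ± 0.15 and 1.39 ± 0.11 after 60 min (SD, n = 3, adjusted p = 0.000257 and 0.000472 from limma) and by 1.13 ± 0.23 and 1.22 ± 0.15 after 30 min (SD, n = 3, adjusted p = 0.00270 and 0.00141). *KTR3* (YBR205W) fell by 1.51 ± 0.68 after 60 min and fell by 1.32 ± 0.14 after 30 min (SD, n = 3, adjusted p = 0.00153 and 0.00429). *KTR2* (YKR061W), of the same gene family as *KTR3*, went the other way. It had 2.79, 1.81 and 1.64 at 60 min (adjusted p = 0.000188) and 1.08, 1.23 and 1.02 at 30 min (adjusted p = 0.00815), a 4.22-fold and 2.16-fold higher signal.
Of 25 genes of the glycosylphosphatidylinositol (GPI) anchor, whose core is built with dolichol phosphate mannose, 8 fell and 1 rose after 60 min, and 7 fell and 0 rose after 30 min (0 at an unadjusted p under 0.05), with medians of -0.37 and -0.51. *CWH43* (YCR017C) and *GPI13* (YLL031C) fell at both times, by 1.47 ± 0.27 and 1.22 ± 0.52 after 60 min (SD, n = 3, adjusted p = 0.000950 and 0.00318) and by 1.16 ± 0.47 and 1.03 ± 0.19 after 30 min (SD, n = 3, adjusted p = 0.00508 and 0.00934). *GPI8* (YDR331W), the catalytic subunit of the GPI transamidase, fell by 0.97 ± 0.14 after 30 min (SD, n = 3, adjusted p = 0.0104) and had -0.18 ± 0.47 at 60 min (SD, n = 3, adjusted p = 0.576). *MCD4* (YKL165C), an ethanolamine phosphate transferase of the anchor, had 2.24, 1.71 and 1.61 at 60 min (adjusted p = 0.000875) and 1.44, 0.17 and -0.06 at 30 min (adjusted p = 0.202). It was the 1 gene of its list that rose.
Of 18 other genes of dolichol, nucleotide sugar supply and glycan quality control, 4 fell and 2 rose after 60 min, and 5 fell and 1 rose after 30 min, with medians of -0.02 and -0.18. *VRG4* (YGL225W), which carries GDP-mannose into the Golgi, fell by 1.27 ± 0.11 after 60 min and fell by 1.66 ± 0.19 after 30 min (SD, n = 3, adjusted p = 0.000863 and 0.000289). *GDA1* (YEL042W), the Golgi GDPase that supports that exchange, had -0.33, -1.23 and -0.01 at 60 min (adjusted p = 0.207) and fell by 1.12 ± 0.72 after 30 min (SD, n = 3, adjusted p = 0.0214). *UGP1* (YKL035W), which makes UDP-glucose, fell by 1.83 ± 0.50 after 60 min and by 0.72 ± 0.32 after 30 min (SD, n = 3, adjusted p = 0.000328 and 0.0476). *QRI1* (YDL103C), which makes UDP-N-acetylglucosamine, fell by 1.09 ± 0.49 after 60 min and fell by 0.84 ± 0.21 after 30 min (SD, n = 3, adjusted p = 0.00527 and 0.0228).

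Several ER folding genes rose. Of 13 chaperones, oxidoreductases and regulators of the unfolded protein response measured, 7 rose after 60 min and 3 after 30 min, where 15.6% and 10.7% of all features rose. The means were above 0 for 13 of them at 60 min and for 10 at 30 min. By limma 0 of 13 fell at each time, adjusted or unadjusted, and the medians were 0.75 and 0.18. Some of these genes were named as up by the study on these same samples, so this count is not independent evidence of their direction. *KAR2* (YJL034W), the ER Hsp70, had 2.07, 1.95 and 2.39 at 60 min (adjusted p = 5.14e-05) and 1.55, 1.59 and 1.28 at 30 min (adjusted p = 0.000587). *SIL1* (YOL031C), a nucleotide exchange factor of Kar2p, rose by 2.36 ± 0.40 after 60 min and 1.12 ± 0.70 after 30 min (SD, n = 3, adjusted p = 0.000175 and 0.0134), and *ERO1* (YML130C), the thiol oxidase of the ER, by 2.28 ± 0.89 after 60 min and 1.05 ± 0.44 after 30 min (SD, n = 3, adjusted p = 0.000406 and 0.0299). *SCJ1* (YMR214W), a J-protein of the ER, rose by 1.30 ± 0.45 after 60 min (SD, n = 3, adjusted p = 0.00321) and had 0.73 ± 0.48 at 30 min (SD, n = 3, adjusted p = 0.0519). Of the 35 glycosylation genes, the highest mean was 0.69 at 60 min and 0.32 at 30 min.
Several 30 min calls of these lists were lost with an experiment of 30 min left out: *KTR2*, *GPI13*, *SIL1*, *ERO1* and *GDA1* without experiment 1 or 2 (adjusted p of 0.0577 to 0.199), *CWH43* without experiment 1 (0.0699), *KTR3* without experiment 2 (0.0502), and *GPI8*, *QRI1* and *UGP1* without any 1 of the experiments 1, 2 and 3 (0.0607 to 0.298).

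**Figure D4:**
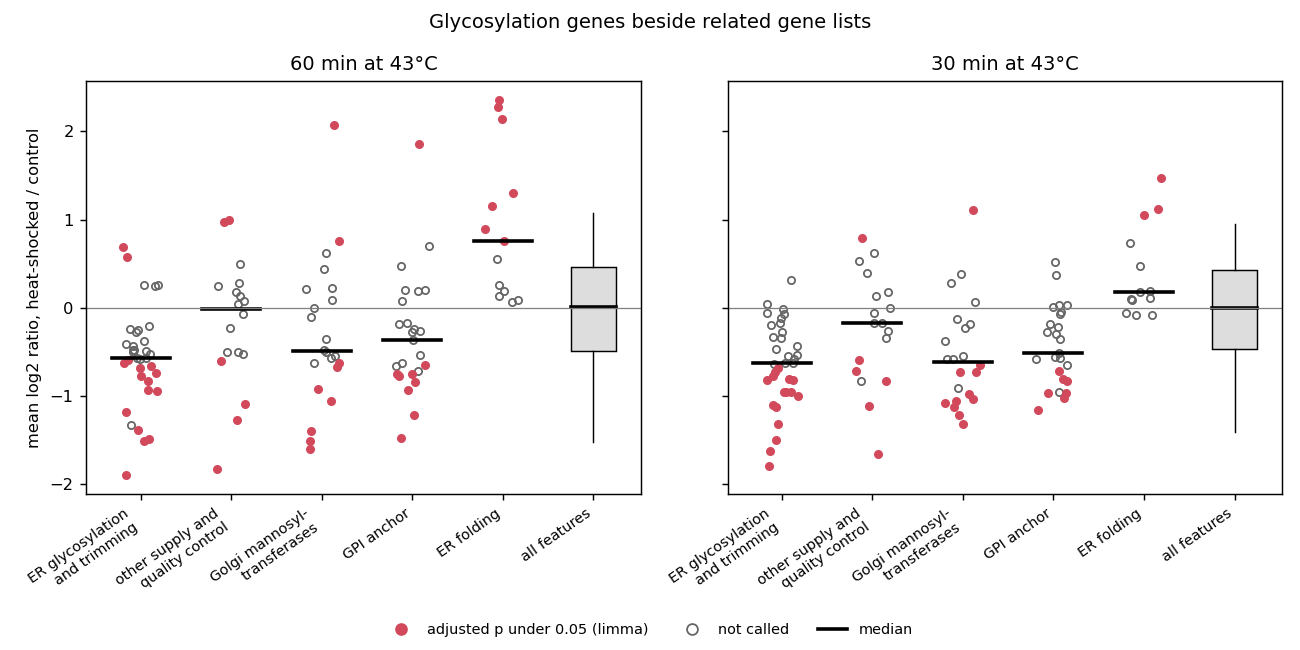
Mean log2 ratio of each gene at 60 min (left) and 30 min (right) for the 35 glycosylation genes and 4 related lists, with called genes filled, and for all features a box from the 25th to the 75th percentile with lines to the 5th and 95th. Black bars are medians, which are -0.57 and -0.63 for the glycosylation genes and 0.75 and 0.18 for the ER folding genes.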

How the data were processed

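Per the labels and the study's methods, each 2-colour cDNA array was scanned at a high and at a low power, and the authors took spot intensities from GenePix and computed Cy5/Cy3 ratios in Chip Cleanser, scaled by negative control spots. The authors deposited 1 log2 ratio per probe and scan. The base is not named in the sources used here and was read from the values: in each array 53 to 589 values had a partner exactly 1 higher, a doubling in log2, and at most 18 had one at the step of natural or decimal logarithms (tolerance 4e-07). The 2 scans of an array differed in 0 values and were counted once. Intensities and backgrounds were not used. With 3 arrays per time the precision is low.

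Of 6912 probes, 6162 had values and 5446 of these 1 gene symbol from the platform annotation, the other 716 none. Locus tags come from RefSeq (assembly R64), in which no listed gene overlaps another. Identical probes (203 in 78 groups) were counted once, different probes of a gene were averaged, and at least 2 values were needed at each time, which removed 0 of 6019 features. The sources used here name no genome build, and positions and sequences are left out.

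The mean log2 ratio of each time was tested against 0, and 60 against 30 min, in 1 model over all 6 arrays with limma 3.58.1 in R 4.3.3 (4 residual and 6.76 prior degrees of freedom), with Benjamini-Hochberg adjustment over all features. The procedure was tested on simulated data. Printed SDs are those of 3 experiments of 1 time. Percentiles are ranks among the features of an array. Print blocks is the name used here for the 192 groups of 36 positions that share the first digits of a probe number. The study's methods do not describe these groups, and whether each was printed together is not known. The alternatives were centred or scaled arrays, centred print blocks, 1 scan, each time fitted alone, the experiment number as a block, a value on all 6 arrays, identical probes kept apart, each experiment left out and the 2-fold rule.

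The members and lists were chosen with earlier results of these data known. Members that passed at either time, the 8 others with the largest mean absolute ratio, and up to 4 called genes of each other list (by largest mean) are given in full. *ALG11*, *ALG12*, *SEC59*, *MNS1* and the genes of the last section were added after their values were seen. *DIE2*, *PCM1*, *KTR4*, *ERI1* and *JEM1* were not analysed here.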

Additional observations from a re-analysis of the deposited data

Results flagged for a closer look

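*MNT2* (YGL257C), a Golgi mannosyltransferase of O-linked chains, lay above 0 on all 3 arrays of 60 min (mean log2 ratio 0.09 ± 0.05, SD, n = 3, adjusted p = 0.766 from limma) and below 0 on all 3 arrays of 30 min (mean -0.65 ± 0.26, SD, n = 3, adjusted p = 0.0350). It was noted because its sign at 60 min was opposite to that at 30 min on every array. Its values of 60 min were near the middle of their arrays (percentiles 52 to 57.3). All 3 values of 60 min lay above those of 30 min in 8.69% of all features. In the limma test of the difference itself *MNT2* had an unadjusted p of 0.0248 and an adjusted p of 0.532, so the times are not shown to differ.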

How the results depend on the processing

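Of the 32 calls of glycosylation genes, 8 held under all 16 alternatives: *OST1* and *PMT4* at both times, *ALG3* and *OST6* at 60 min, and *SEC53* and *PMT1* at 30 min. Not all alternatives were real checks. Each scan by itself repeats the main fit, since the scans differed in 0 values. A value on all 6 arrays and identical probes kept apart leave the values of these genes unchanged. Alternatives also gained calls, all of them lower, for 9 genes at 60 min and 8 at 30 min. With 1 experiment left out, 8 to 11 of the genes fell and 0 rose after 60 min, and 5 to 20 fell after 30 min. Over all features, 811 to 1067 then fell and 637 to 861 rose at 60 min, and 417 to 1244 fell and 132 to 1013 rose at 30 min. Without experiment 3 of both times, 9 genes and 745 features fell at 60 min and 9 genes at 30 min, and 552 features fell and 220 rose at 30 min. With each time fitted alone, 7 of the genes fell and 0 rose at 60 min, and 22 fell and 0 rose at 30 min. Over all features, 755 then fell and 515 rose at 60 min, and 1443 fell and 1278 rose at 30 min. Scaled arrays gave 1025 features that rose at 30 min. The number of genes that rose at 60 min was 1 with centred arrays, 1 with scaled arrays and 0 with print blocks centred. By the 2-fold rule in place of the test, 6 genes were down and 0 up at 60 min and 7 down at 30 min, and of all features 630 and 415, then 613 and 266. Over 2-fold in all 3 experiments, 3 genes were down at 60 min.

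Signs turned in values that had not passed the test. With print blocks centred, *ALG7* at 60 min became 0.012, *ALG11* 0.052 at 60 min and 0.066 at 30 min, and *ALG12* 0.0061 at 60 min and 0.025 at 30 min. With 1 experiment left out, *OST4* ranged over -0.00043 to 0.42 at 60 min and -0.17 to 0.21 at 30 min, *PMT3* over -0.12 to 0.66 and -0.14 to 0.058, *ALG5* at 30 min over -0.082 to 0.25, and *PSA1* and *GPI8* at 60 min over -0.58 to 0.093 and -0.43 to 0.036. Without experiment 3 of both times, *ALG5* at 30 min was -0.082 and *GPI8* at 60 min 0.036. The cause was not tested.

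Deviations from the time's mean correlated at -0.04, 0.13 and 0.36 between arrays with the same experiment number. Between arrays with different numbers they correlated at -0.29 to 0.19. These few values do not settle whether experiments with 1 number belong together, and the main fit does not treat them as pairs. With the number as a replicate block, 15 genes fell and 1 rose at 60 min and 16 fell at 30 min.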

Other observations

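Genes of the steps that feed N-glycan assembly were chosen here after their values were seen. *SRT1* (YMR101C), a cis-prenyltransferase that makes dolichol chains, had log2 ratios of 0.97, 1.56 and 0.38 at 60 min (adjusted p = 0.0135 from limma) and 1.11, 0.76 and 0.51 at 30 min (adjusted p = 0.0384). The other cis-prenyltransferase, *RER2* (YBR002C), had means of 0.18 ± 0.62 at 60 min and 0.39 ± 0.29 at 30 min (SD, n = 3, adjusted p = 0.610 and 0.267). *NUS1* (YDL193W), a partner subunit of both, had 0.50 ± 0.33 and 0.62 ± 0.27 (SD, n = 3, adjusted p = 0.0976 and 0.0563). The call of *SRT1* did not hold at 60 min when experiment 2 of that time was left out (adjusted p = 0.0810), nor at 30 min without any 1 of the experiments 1, 2 and 3 of 30 min (0.0737 to 0.251).

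In the pathway to UDP-N-acetylglucosamine, the first and last enzymes had opposite signs. *GFA1* (YKL104C), which opens the pathway, had 1.43, 0.29 and 1.26 at 60 min (adjusted p = 0.0116) and 0.33, 0.54 and 0.73 at 30 min (adjusted p = 0.134), while *QRI1*, which closes it, was below 0 on all 6 arrays. *GNA1* (YFL017C), between them, had means of 0.13 and -0.06. The 60 min call of *GFA1* was lost without experiment 3 of 60 min or of both times (adjusted p of 0.0622 to 0.101).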
